A study of Drosophila melanogaster with 8 samples.

Results

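The genes of the proteasome were examined in the intestine of adult female Drosophila melanogaster fed N-acetyl-D-glucosamine (GlcNAc). The members are the 31 genes, of 7671 in the expression table, whose symbols name a numbered alpha or beta subunit of the core particle (Prosalpha, Prosbeta) or a numbered ATPase (Rpt) or non-ATPase (Rpn) subunit of the regulatory particle. The rule used their names only, and earlier results of these data were known when it was set. They comprise 6 genes of the alpha ring, 7 of the beta ring, 6 of the ATPase ring, 4 other genes of the base and 8 genes of the lid. The complex has 33 standard subunits by this naming with Sem1, the small lid subunit also called Rpn15, which was in the table under its own symbol. Prosalpha1 was not analysed here. The reference annotation holds 48 gene symbols of these families, and the other 17, Prosalpha1 and the duplicated copies such as Prosalpha3T, Rpt3R and Rpn13R, were likewise not analysed here.

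The proteasome degrades proteins that carry ubiquitin chains. Its 20S core is a barrel of alpha and beta rings, in which the alpha rings gate the entrance and the beta rings hold the proteolytic sites. The 19S regulatory particle caps the barrel: its base contains a ring of ATPases that unfolds substrates and threads them into the core, and its lid removes the ubiquitin chain. In flies and mammals the subunit genes are known to be raised together by transcription factors of the cap'n'collar family when proteasome activity falls short.

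RNA was sequenced from dissected intestines of mated females that were moved at 7 days of age, for 24 h, to food diluted to 0.25 of its strength. The GlcNAc group received 0.1 M GlcNAc in that food and the control group received none, with 4 libraries in each. Both groups were on the diluted diet, so every comparison is between restricted flies with and without GlcNAc, and flies on full food were not analysed here. The labels call the 4 samples of each group independent, with control and GlcNAc samples taken in parallel. They do not say whether samples of the same number belong together. The genotype of the flies and the number of flies behind a sample are not given in the sources used here. One label field names whole larvae as the source, whereas the tissue field and the dissection protocol name the intestine, and the treatment field names glucosamine where the protocol names GlcNAc. Jon65Aiv, a digestive serine protease of enterocytes, had the highest level in the table at 34328 ± 2268 CPM in control (SD, n = 4). This level was not set against larval samples and does not settle which field is right.

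Levels are given as CPM, the reads on a gene in proportion to all reads counted in that library, after scaling between libraries. Libraries held 8839877 to 9838415 counted reads in control and 9281492 to 10326189 in GlcNAc. Of the members, 30 had 423 to 2532 reads in every library, and Rpn13 had 9 to 19. Fold changes are log2 differences, GlcNAc minus control, from limma with Benjamini-Hochberg adjustment over all 7671 genes, and a gene was called at an adjusted p under 0.05. In a bulk tissue sample, fewer cells of a type and less RNA per cell cannot be told apart. The library GlcNAc 2 stood apart from the other GlcNAc libraries in these genes, being the lowest of them in 31 of 31, and the counts and medians without it are given with the spread between libraries.

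Most proteasome genes had fold changes slightly below 0, and few of them passed the test one by one. The fold change was below 0 in 30 of the 31 genes, beside 47.2% of all genes, and its median was -0.16 over the members and 0.01 over all genes on the log2 scale. Only 2 genes fell by limma, Rpt1 and Rpt2, both ATPases of the base. In this fit 6.60% of all genes were called lower, beside 6.45% of the members. The number of members called ranged from 1 to 8 over 18 alternative fits. The 8, or 25.8% of the members beside 7.53% of all genes, came with the replicate number as a block. None of the members was called higher, beside 8.75% of all genes. No member was higher at an unadjusted p under 0.05 either. With voom weights on the recovered reads, 0 members were called higher at an adjusted p under 0.05. At an unadjusted p under 0.05, 11 of 31 members (35.5%) were lower, beside 12.4% of all genes. The 4 GlcNAc values lay below the 4 control values, with no overlap, in 7 members, Prosalpha3, Prosbeta2, Prosbeta7, Rpt1, Rpt2, Rpt3 and Rpn1, beside 9.24% of all genes. They lay wholly above in 0 members, beside 11.2% of all genes. The mean log2 CPM over the 31 genes was 6.84, 6.75, 6.98 and 6.93 in control libraries 1 to 4 and 6.79, 6.53, 6.77 and 6.75 in GlcNAc libraries 1 to 4. The groups overlapped in this mean, with GlcNAc 1, 3 and 4 above control 2. These counts describe the list and were not tested as a set, because members share libraries and are not replicates.

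**Figure D1:**
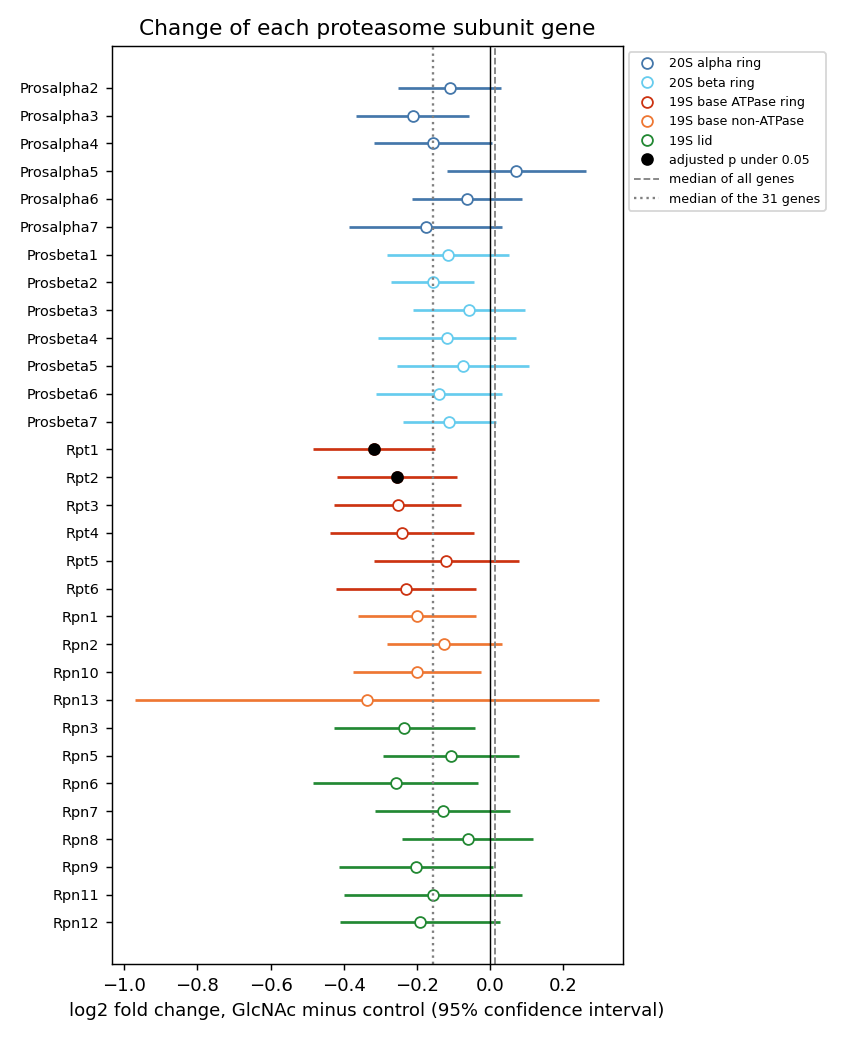
Log2 fold change (GlcNAc minus control, x axis) of each of the 31 proteasome subunit genes with its 95% confidence interval from limma, coloured by subcomplex, with filled black points for an adjusted p under 0.05. All points but Prosalpha5 lie left of 0, and only the intervals of Rpt1 and Rpt2 belong to called genes.

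The ATPase ring, 6 AAA+ ATPases that form a motor on top of the core, had the largest differences of the subcomplexes. Its fold changes ran from -0.32 to -0.12 with a median of -0.25, and 5 of the 6 genes had an unadjusted p under 0.05. Rpt1 measured 201, 196, 212 and 200.1 CPM in control libraries 1 to 4 and 177, 141, 164 and 169.8 CPM in GlcNAc libraries 1 to 4. The groups did not overlap, control values were close together, and GlcNAc 2 was the lowest. The gene fell by 0.32 on the log2 scale, to 0.80 of the control level (95% confidence interval of the log2 change -0.48 to -0.15, adjusted p = 0.0174, limma). This call held under all 18 alternative fits, with adjusted p between 0.0119 and 0.0490 by limma. Rpt1 is a single-exon gene at 2R:7652440-7653954 on the minus strand (release 6 assembly).

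Rpt2, whose tail is known from yeast to reach into the alpha ring and open its gate, measured 196, 185, 214 and 206 CPM in control and 177, 149, 168 and 178 CPM in GlcNAc. The groups did not overlap, with a small margin between control 2 and GlcNAc 4. Its log2 change was -0.25 (95% confidence interval -0.42 to -0.09, adjusted p = 0.0433 by limma), and that call stood close to the threshold. It was lost in 10 of the 18 alternative fits, namely when any 1 library other than control 2 was left out, with library totals, with quantile normalization and without the trend, at an adjusted p up to 0.136 by limma. The gene lies at 3R:23929873-23931558 on the minus strand, with 116 exonic bases over an exon of CG31142 on the opposite strand. Counting used the strand.

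Rpt3 measured 175, 165, 194 and 186 CPM in control and 150.2, 134, 164 and 158 CPM in GlcNAc. The groups again did not overlap, yet the gene missed the threshold, with a log2 change of -0.25 (95% confidence interval -0.43 to -0.08) and an adjusted p of 0.0552 by limma. Rpt4 and Rpt6 overlapped between the groups, with log2 changes of -0.24 and -0.23. Rpt6 measured 205, 185, 226 and 217 CPM in control and 189, 153, 179 and 189 CPM in GlcNAc, where GlcNAc 1 and GlcNAc 4 exceeded control 2. Rpt5 had the smallest difference of the ring, -0.12 (95% confidence interval -0.32 to 0.08), from 156, 142, 178 and 169 CPM in control and 156, 128, 152 and 156 CPM in GlcNAc. For Rpt5, GlcNAc 1, 3 and 4 sat within the control range and GlcNAc 2 alone lay below it.

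**Figure D2:**
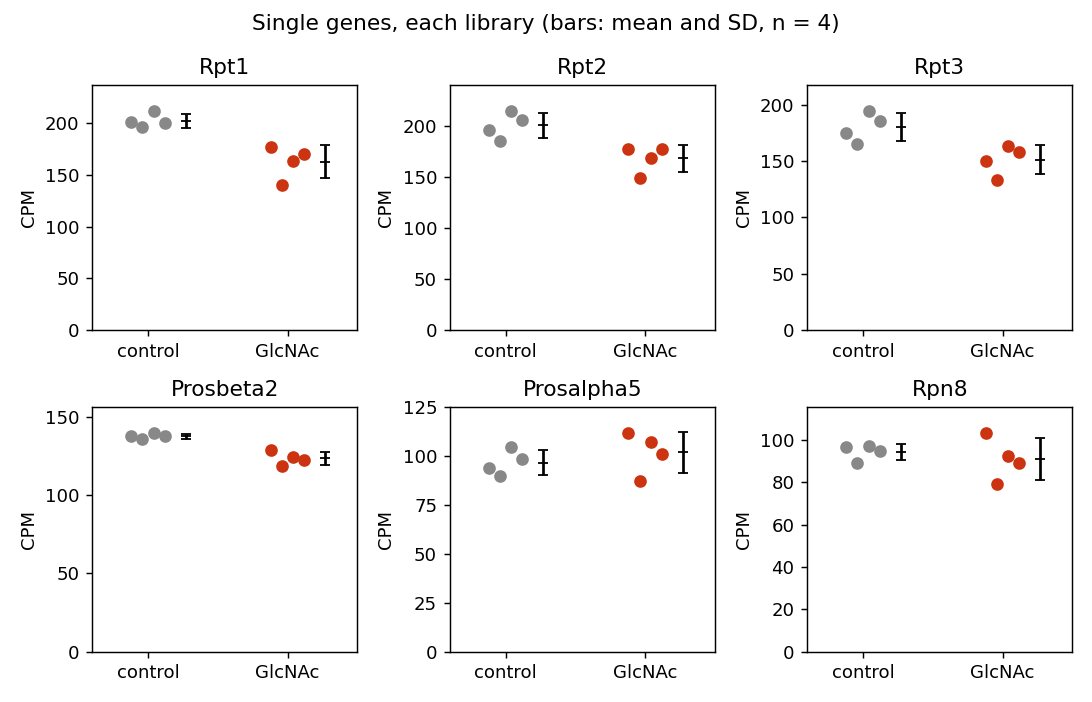
CPM of 6 proteasome genes in each library (grey, control; red, GlcNAc), with the mean and SD of each group of 4 beside the points. Rpt1, Rpt2, Rpt3 and Prosbeta2 do not overlap between the groups, Prosalpha5 is the gene with a fold change above 0, and Rpn8 spreads over 79.1 to 103 CPM in GlcNAc.

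The base also holds Rpn1 and Rpn2, the large scaffold subunits, and the ubiquitin receptors Rpn10 and Rpn13. All 4 had fold changes below 0, with a median of -0.20, and none was called. Rpn1, which is known to bind shuttle proteins that deliver ubiquitinated substrates, was the most abundant member at 257 ± 15.9 CPM in control and 224 ± 17.1 CPM in GlcNAc (SD, n = 4). Its libraries read 245, 242, 273 and 268 CPM in control and 234, 199, 225 and 236 CPM in GlcNAc, with no overlap and a log2 change of -0.20 (adjusted p = 0.0999, limma). Rpn10 differed by the same amount on the log2 scale, -0.20 (adjusted p = 0.124, limma), with GlcNAc 1 and GlcNAc 4 above control 2. Rpn2, on which Rpn13 sits, showed -0.13.

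Rpn13 stood apart from all other members by its level. It measured 2.03, 1.06, 1.73 and 1.96 CPM in control and 1.39, 1.10, 1.58 and 1.20 CPM in GlcNAc, at the 3.85 percentile of the table, whereas the least abundant of the other 30, Prosbeta4, was at 54.03 ± 4.33 CPM in control. Control 2 and GlcNAc 2 were the lowest of its values. Its log2 difference of -0.34 was the most negative of all members, and its 95% confidence interval ran from -0.97 to 0.30, so that no difference was detectable at this depth. It passed the deposited table's filter in both groups.

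The lid, 8 subunits around the deubiquitinase Rpn11, had fold changes from -0.26 to -0.06 with a median of -0.17, all below 0. None was called and none separated the groups, although Rpn3 and Rpn6 had an unadjusted p under 0.05. Rpn6, which clamps the lid to the core, read 87.4, 85.6, 102 and 96.9 CPM in control and 78.2, 63.8, 83.1 and 87.4 CPM in GlcNAc. GlcNAc 4 lay within the control range, and the log2 change was -0.26 (95% confidence interval -0.48 to -0.03, adjusted p = 0.126, limma). Rpn3, a scaffold subunit, differed by -0.23 (adjusted p = 0.105, limma) from 132 ± 12.04 CPM to 112 ± 10.2 CPM (SD, n = 4).

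Rpn11 itself had the widest control spread of the lid, 140.0, 143, 186 and 167 CPM, beside 152, 119, 150.2 and 148 CPM in GlcNAc. Control 1 and control 2 lay below 3 of the GlcNAc libraries, and the log2 change was -0.16 (95% confidence interval -0.40 to 0.09). Its inactive partner Rpn8 differed least in the lid, -0.06 (95% confidence interval -0.24 to 0.12), with 96.5, 89.1, 97.3 and 94.97 CPM in control and 103, 79.1, 92.3 and 88.9 CPM in GlcNAc. GlcNAc 1 was the highest of all 8 libraries for Rpn8 and GlcNAc 2 the lowest, and the sign turned to 0.0036 without GlcNAc 2. The scaffold subunits Rpn5, Rpn7, Rpn9 and Rpn12 had log2 changes of -0.11, -0.13, -0.20 and -0.19, none of them called. Sem1, counted apart from the 31, was at 68.5 ± 7.57 CPM in control and 69.4 ± 9.13 CPM in GlcNAc, a log2 difference of 0.01 (95% confidence interval -0.23 to 0.26).

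In the 20S core the differences were smaller. The beta ring had fold changes from -0.16 to -0.06, all 7 below 0, with a median of -0.11. Prosbeta2, the trypsin-like protease, had the tightest control values of the 30 abundant members, 138, 136, 139.8 and 138 CPM, and read 129, 119, 124 and 123 CPM in GlcNAc. The groups did not overlap, and the log2 change of -0.16 (95% confidence interval -0.27 to -0.04) had an adjusted p of 0.0674 by limma. The other proteolytic subunits overlapped between the groups: the caspase-like Prosbeta1 differed by -0.11 and the chymotrypsin-like Prosbeta5 by -0.07 on the log2 scale. Prosbeta5 read 141, 139.8, 169 and 157 CPM in control and 154, 128, 149 and 144 CPM in GlcNAc, and 3 GlcNAc libraries were higher than control 1 and control 2. Among the subunits without a proteolytic site, Prosbeta7 did not overlap, with 122, 122, 129 and 121 CPM in control and 119, 108, 119.6 and 111 CPM in GlcNAc, while its log2 change was only -0.11 (adjusted p = 0.241, limma). The gap between its nearest libraries, control 4 and GlcNAc 3, was under 2 CPM. Prosbeta3, Prosbeta4 and Prosbeta6 overlapped, with log2 changes of -0.06, -0.12 and -0.14.

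The alpha ring had a median of -0.13 and the widest range of the core, from -0.21 to 0.07. Prosalpha3, whose N-terminal tail is central to the closed gate in yeast, read 144, 142, 158 and 152 CPM in control and 136, 115, 131 and 132 CPM in GlcNAc. There was no overlap, and the log2 change of -0.21 (95% confidence interval -0.37 to -0.06) had an adjusted p of 0.0666 by limma. Prosalpha5 was the only member with a fold change above 0, 0.07 (95% confidence interval -0.12 to 0.26, adjusted p = 0.649, limma). It read 93.8, 89.4, 105 and 98.1 CPM in control and 112, 87.1, 107 and 101 CPM in GlcNAc, where GlcNAc 2 was the lowest library and GlcNAc 1 the highest. Prosalpha2, Prosalpha4, Prosalpha6 and Prosalpha7 overlapped between the groups, with log2 changes of -0.11, -0.16, -0.06 and -0.18.

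Much of the spread between libraries was shared by the members. GlcNAc 2 was the lowest GlcNAc library in 31 of 31 genes and the lowest of all 8 libraries in 30, the exception being Rpn13. Control 3 was the highest control library in 26 genes and control 2 the lowest in 25. After each group's mean was removed, the median correlation between pairs of members was 0.86 over the 8 libraries (30 genes without Rpn13). This value is a description, since all pairs share the same libraries and scaling. It is not particular to the proteasome: the same median was 0.95 over 8 genes of the chaperonin CCT and 0.86 over 10 visceral muscle genes. It was lower, 0.74, over 13 genes of the translation factor eIF3, 0.36 over 8 genes of the COP9 signalosome and 0.25 over 18 ubiquitin genes. Without GlcNAc 2 the median fold change of the members was -0.09 and the call of Rpt1 alone remained. The medians by subcomplex were then -0.18 for the ATPase ring, -0.14 for the rest of the base, -0.10 for the lid, -0.08 for the alpha ring and -0.07 for the beta ring. Of the 31 fold changes, 19 moved by over 1.5 times, 18 of them nearer to 0 and Prosalpha5 further from it. These directions were fixed in advance, because leaving out the lowest GlcNAc library raises every fold change. Prosalpha5 went to 0.14, while Rpt5 went to -0.05, Rpn11 to -0.07, Rpn5 to -0.04 and Prosbeta5 to -0.02. Without control 2 instead, the median was -0.19 and 4 members were called lower. Without both libraries numbered 2, a comparison chosen after the data were seen, the median was -0.14 and Rpt1, Rpt2 and Rpt4 were called lower. The members together took 0.373 to 0.469% of the counted reads of a control library and 0.349 to 0.410% of a GlcNAc library, so that the groups overlapped in that share.

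**Figure D3:**
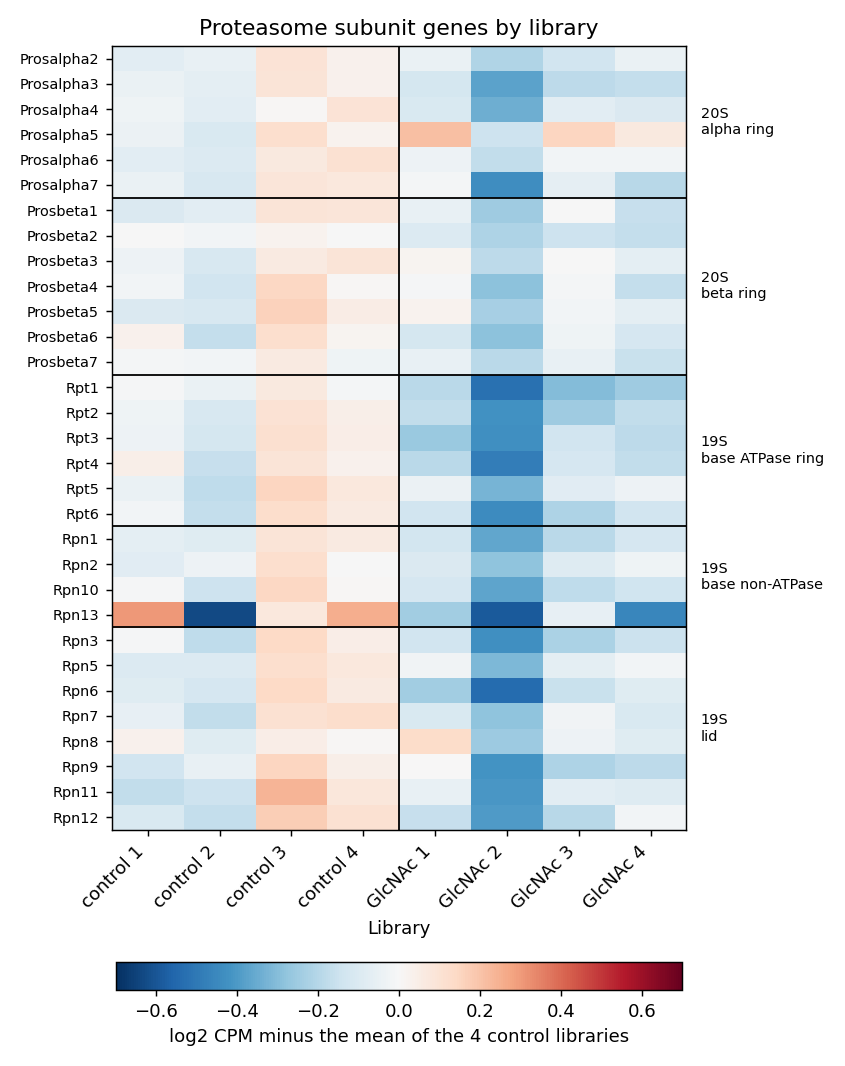
Heat map of log2 CPM minus the control mean for each of the 31 genes (rows, by subcomplex) in each of the 8 libraries (columns), blue for lower and red for higher. The column of GlcNAc 2 is the lowest in 30 of 31 rows, control 3 is mostly above the control mean, and Prosalpha5 is above it in 3 of the GlcNAc libraries.

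Differences between members within a library do not depend on a scaling factor between libraries. The mean log2 CPM of the ATPase ring exceeded that of the 20S core by 0.70, 0.63, 0.69 and 0.66 in control libraries 1 to 4 and by 0.53, 0.49, 0.53 and 0.62 in GlcNAc libraries 1 to 4. The groups did not overlap, the nearest libraries being control 2 and GlcNAc 4, and the mean difference between groups was -0.13. That separation was narrow: the groups overlapped when Rpt1 and Rpt2 were left out of the ring (difference -0.10) and when Prosalpha5 was left out of the core (difference -0.11). The ATPase ring also exceeded the lid by 0.70, 0.63, 0.60 and 0.61 in control and by 0.54, 0.58, 0.57 and 0.57 in GlcNAc, again with no overlap and a difference of -0.07. The lid against the core (difference -0.06) and the alpha against the beta ring (0.0029) overlapped. These comparisons were chosen after the fold changes had been seen and carry no test.

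**Figure D4:**
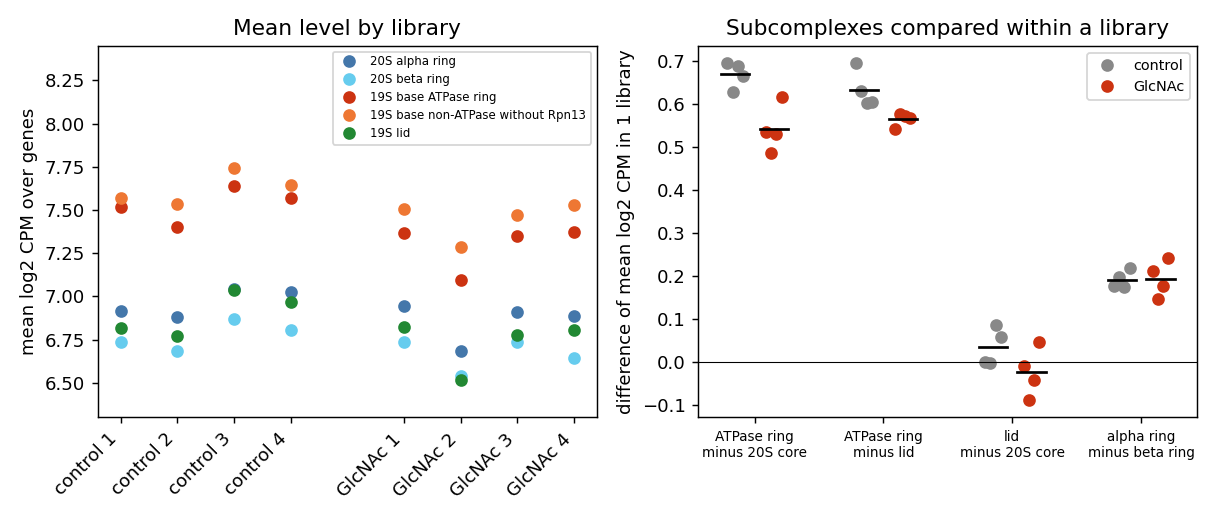
Left, mean log2 CPM over the genes of each subcomplex in each library; right, differences between subcomplexes within a library, with a bar at each group's mean (grey, control; red, GlcNAc). The ATPase ring minus the 20S core lies between 0.63 and 0.70 in control and between 0.49 and 0.62 in GlcNAc, whereas the alpha minus the beta ring overlaps.

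Set against the mean of the other members in the same library, the GlcNAc values lay wholly below the control values for 4 genes, Prosalpha3, Rpt1, Rpt2 and Rpt3, and wholly above for 2, Prosalpha5 and Prosbeta3. The share of all genes that separate on this relative scale is not given here, so these counts have no background beside them. The shifts were not tested. Prosalpha5 gave the largest shift. Relative to the other members it stood at -0.50, -0.51, -0.50 and -0.53 on the log2 scale in control and at -0.21, -0.31, -0.25 and -0.32 in GlcNAc, a difference of 0.24. The control values lay within a narrow band and every GlcNAc value was above it. Rpt1 lay the other way, from 0.64, 0.66, 0.55 and 0.53 in control to 0.48, 0.40, 0.39 and 0.45 in GlcNAc, a difference of -0.17. For Rpt2 and Rpt3 the difference was -0.10 each, for Prosalpha3 -0.06 and for Prosbeta3 0.10.

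Members other than Rpn13 were abundant in this tissue. Their control means ran from 54.0 to 257 CPM, with a median of 135 beside 26.39 for all genes, which put them between the 66.8 and 91.7 percentile of the table. Because longer messages give more reads, levels of different genes are compared per kilobase of exon, where the 30 genes ran from 43.5 to 182 CPM per kb in control, a 4.19-fold range with a median of 114.6. The ATPase ring kept to a band from 99.03 for Rpt5 to 148 CPM per kb for Rpt6. Prosalpha2 was at the top with 182 CPM per kb, followed by Prosalpha3 at 153. The lowest were lid and base scaffolds, Rpn9 at 43.5, Rpn6 at 47.8 and Rpn2 at 48.6 CPM per kb. In the core, Prosbeta4 was the lowest at 66.3. Exon length here is the union of annotated exons, so a gene with rarely used exons would read low.

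**Figure D5:**
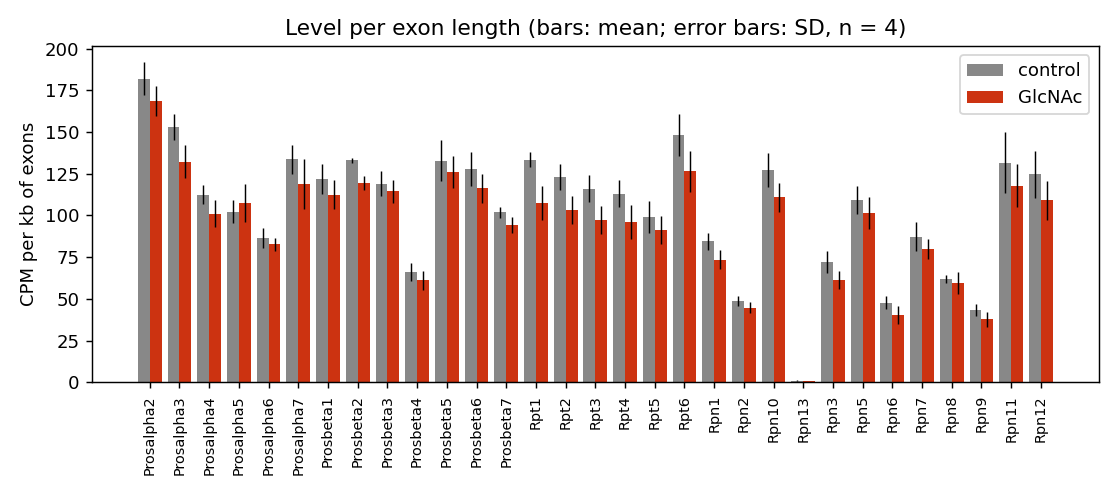
Mean CPM per kilobase of annotated exon for the 31 genes in control (grey) and GlcNAc (red), with the SD of 4 libraries as error bars. Prosalpha2 is the highest at 182 in control and Rpn13 is near 1, and the red bar is shorter than the grey one for every gene except Prosalpha5.

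The members are spread over the genome: 4 lie on chromosome arm 2L, 9 on 2R, 5 on 3L, 9 on 3R and 4 on X. Their median fold changes by arm ran from -0.24 on X to -0.12 on 3R. The closest pairs were Rpn9 and Rpt5, 19.4 kb apart on 3R, and Rpn12 and Prosbeta6, 25.4 kb apart on 3L, and no other pair lay within 100 kb. Member genes were short, with a median exon length of 1393 bases beside 2140 for the 7580 genes of the table with a length. No exon of a member overlapped another gene on the same strand.

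Factors that assemble, regulate or feed the proteasome did not share one direction. Of 18 such genes listed, 11 were in the table, with 6 fold changes below 0, 5 above, a median of -0.05, 0 called lower and 1 called higher. The one called was PI31, a proteasome-binding regulator, which read 53.4, 55.8, 63.01 and 55.3 CPM in control and 67.6, 65.7, 77.6 and 70.5 CPM in GlcNAc. The GlcNAc values were all above the control values, and the gene rose by 0.31 on the log2 scale (95% confidence interval 0.14 to 0.48, adjusted p = 0.0211, limma). The call was lost without control 1, control 4, GlcNAc 3 or GlcNAc 4, where the adjusted p was 0.0539 to 0.0602 by limma. Usp14, the deubiquitinase that docks on Rpn1, had non-overlapping values in the other direction, 81.1, 72.4, 86.9 and 81.5 CPM in control and 71.3, 55.96, 72.4 and 67.9 CPM in GlcNAc. The nearest values, 72.415 CPM in control 2 and 72.402 CPM in GlcNAc 3, were all but equal. Usp14 was not called, with a log2 change of -0.27 and an adjusted p of 0.0782 by limma. Pomp, the maturation factor of the core, and CG2046, annotated as a core assembly chaperone of the PSMG1 type and added to the list after the table was seen, had log2 changes of -0.11 and -0.24. The shuttle proteins Ubqn, Rad23 and rngo had -0.10, -0.13 and 0.09, and Uch-L5, Uch, Ube3a and CG8858 had 0.14, 0.10, 0.11 and -0.05, none called.

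Among 9 genes around CncC, the cap'n'collar factor known to drive proteasome genes in flies, 1 was called lower and 2 higher. The gene cnc, which encodes CncC among other isoforms, read 342, 401, 342 and 365 CPM in control and 383, 395, 419 and 391 CPM in GlcNAc, with a log2 change of 0.13 (adjusted p = 0.236, limma). Keap1, the inhibitor that binds CncC, fell by 0.58 on the log2 scale (95% confidence interval -0.92 to -0.24, adjusted p = 0.028, limma), from 53.2, 87.96, 52.9 and 71.5 CPM to 40.3, 42.5, 42.95 and 48.4 CPM. Its control libraries differed widely among themselves and none reached down to the GlcNAc values. The call of Keap1 was lost in 6 of the 18 alternative fits, without control 4, GlcNAc 1, GlcNAc 2 or GlcNAc 3, without both libraries numbered 2 and without the trend, at an adjusted p of 0.0523 to 0.0825 by limma. The ubiquitin ligase of the endoplasmic reticulum sip3 rose by 0.34 on the log2 scale (adjusted p = 0.0158, limma), and crc, the fly ATF4, rose by 0.24 on the log2 scale (adjusted p = 0.0267, limma). The call of crc was lost without control 1, control 3, GlcNAc 2, GlcNAc 3 or GlcNAc 4 and without both libraries numbered 2, and the call of sip3 without both libraries numbered 2 (adjusted p = 0.0764, limma). The remaining genes, maf-S, Pngl, rngo, TER94 and Hrd3, had log2 changes of -0.19, -0.02, 0.09, -0.15 and 0.23 and were not called. Of 18 genes for ubiquitin, its activating and conjugating enzymes and the p97 system, 11 were below 0 and 0 were called by limma in either direction, beside 0 lower and 3 higher at an unadjusted p under 0.05.

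The lid has a relative in the COP9 signalosome and in the translation factor eIF3, which are built from the same kinds of scaffold domains, and the chaperonin CCT is another ring complex of many subunits. COP9 genes had 3 of 8 fold changes below 0, a median of 0.02 and 0 calls, with 0 also at an unadjusted p under 0.05. The eIF3 genes had 3 of 13 below 0, a median of 0.02 and 1 call, eIF3-S8, which rose by 0.33 on the log2 scale (adjusted p = 0.0405, limma). That call was lost in 11 of the 18 alternative fits, those without any 1 library except control 4 among them. At an unadjusted p under 0.05 by limma, 1 eIF3 gene was lower and 2 were higher. The eIF3 gene Tango7 was added to its list later, as CG2046 was to the assembly list. CCT genes had 8 of 8 below 0 and a median of -0.15, and none was called or reached an unadjusted p under 0.05. GlcNAc 2 was the lowest GlcNAc library in 8 of 8 CCT genes, in 4 of 8 COP9 genes and in 1 of 13 eIF3 genes. The difference between the proteasome and these complexes was not tested.

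Marker genes of gut cell types were examined beside these values. The summed level of 8 enterocyte genes in the table, of 11 listed, was 84231 to 98944 CPM in control and 75233 to 80682 CPM in GlcNAc, without overlap. Most of that sum came from alphaTry, Jon65Aiii and Jon65Aiv, at 21651, 24204 and 34328 CPM in control, none of them called. Of the 8 genes, 6 were below 0 and 2 above; 2 were called lower and 1, the maltase Mal-A1, higher, and the transcription factor gene nub had a log2 difference of 0.21 and was not called. The proteases of this list are made in bulk by enterocytes, the absorptive cells of the gut. All 10 visceral muscle genes in the table, of 11 listed, had fold changes below 0 and 1 was called, with sums of 1079 to 1560 CPM in control and 939 to 1331 CPM in GlcNAc. Of 10 enteroendocrine genes, of 11 listed, 9 were above 0 and 3 were called higher, with sums of 377 to 495 and 449 to 525 CPM. Enteroendocrine genes, many of which encode gut hormones, were mostly on the other side of 0 from the proteasome genes. The 6 progenitor genes gave 127 to 150 and 129 to 165 CPM and 0 calls. The ovary genes Yp1 and Yp3 summed to 21.5 to 534 CPM in control and 79.3 to 267 CPM in GlcNAc. The fat body gene apolpp ran from 2.03 to 117 CPM in control and from 18.4 to 66.7 CPM in GlcNAc, and 4 tubule genes summed to 258 to 331 and 279 to 362 CPM, with 0 calls in the ovary, fat body and tubule lists. These tissues lie next to the gut, and these values overlapped between the groups. Yp1, Yp3 and apolpp were highest in control 2 and GlcNAc 2 of their groups, unlike Mtp, the other fat body gene. For Yp1 these libraries read 416 and 225 CPM. Control 2 was the lowest control library in 25 of the 31 proteasome genes, and GlcNAc 2 the lowest GlcNAc library in 31. The part of any of these cell types in the proteasome values was not tested.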

How the data were processed

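The authors trimmed the single-end reads with Trimmomatic, mapped them with TopHat 2.1.0 to FlyBase release 6, counted reads on exons by strand with HTSeq and kept genes that exceeded 1 CPM in 3 or more libraries of either condition. The deposited values are log2 CPM, scaled between libraries with an offset of 0.5 read, in 1 column per library. The authors' log2 fold changes, their score columns (test statistics) and their p-values were deposited beside these and were not used.

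Reads were recovered from the steps of the log2 CPM values, and all 61368 values came out whole within 0.05 read. Totals cover the counted genes only and bound the precision of low genes such as Rpn13. Groups followed the sample titles. The test between 4 GlcNAc and 4 control libraries used limma 3.58.1 under R 4.3.3, by lmFit and eBayes with a trend, tested on simulated data, with Benjamini-Hochberg adjustment over 7671 genes. Alternatives were a filter at 10 CPM, a block for the replicate number, the omission of single libraries, voom weights on the recovered reads, other scalings, other pseudocounts and no trend.

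All members were accounted for by subcomplex. Members of the assembly and CncC lists were named, and of the other lists those past the threshold. The members, lists and markers were chosen with earlier results of these data known. Gene positions and exon lengths came from the BDGP6 annotation. The promoters that had been planned were not analysed here.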

Additional observations from a re-analysis of the deposited data

Results flagged for a closer look

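In 6 of the 62 groups of 4 values, the lowest or highest library stood far from the other 3 by Dixon's test, where chance gives about 1 in 20. The groups share the same libraries and are not independent, so the count cannot be set against that rate. In 5 of the 6 cases the library was GlcNAc 2. It read 104.5 CPM for Prosalpha4, where the other GlcNAc libraries read 123 to 126 CPM. For Prosalpha6 it read 81.83 CPM, beside 89.9 to 91.1 CPM in the others. For Rpt5 it read 128.0 CPM and the others 152 to 156 CPM. The lid subunit Rpn5 was at 166.2 CPM in GlcNAc 2, with 198 to 204 CPM elsewhere, and the deubiquitinase Rpn11 was at 119.1 CPM, with 148 to 152 CPM elsewhere. The other case was the beta ring gene Prosbeta7 in control 3, which was the highest at 129.4 CPM, with 121 to 122 CPM in the other control libraries.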

How the results depend on the processing

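Of 31 proteasome genes, 2 were called lower with the deposited scaling, and no member was called higher in any of the 18 alternatives. The number called lower was 8 with the replicate number as a block, 5 with median centring (Rpt1, Rpt2, Rpt3, Prosalpha3 and Prosbeta2), and 1 with library totals, with quantile normalization and without the trend. Of all genes, 7.53%, 7.09%, 5.32%, 7.63% and 5.38% were called lower in these 5 fits, beside 25.8%, 16.1% and, in the last 3, 3.23% of the members. It ranged from 1 to 4 when 1 library at a time was left out. The median fold change of the members ranged from -0.19 to -0.09 over these omissions, the last being without GlcNAc 2, and was -0.10 with library totals, which moved the median of all genes from 0.01 to 0.07. At least 29 members were below 0 in every alternative. Of 557 fold changes of single members under alternatives, 533 kept their sign and side of the threshold. With single libraries left out, Rpn8 ranged from -0.1248 to 0.0036, the latter without GlcNAc 2. Among related genes near 0, Sem1 ranged from -0.0498 to 0.1035 with libraries left out and was -0.0054 with median centring and -0.0015 with quantile normalization. Over the same omissions Pngl ranged from -0.0359 to 0.0012, maf-S from -0.3378 to 0.0391 and Uch-L5 from -0.0337 to 0.2377. Pngl was 0.0369 and CG8858 0.0023 with library totals, and Pngl was 0.0095 without both libraries numbered 2. The cause was not tested. Library totals also changed the split of all genes called, from 506 lower and 671 higher to 408 lower and 866 higher.

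Samples with the same number correlated at 0.21, 0.40, 0.15 and -0.06 in their deviations from the group means over all genes. Samples with unlike numbers correlated at -0.29 to 0.18. Not every sample correlated best with its own number, so the numbers were not taken to pair the samples. The 8 genes called with the replicate block were Prosalpha3, Rpt1, Rpt2, Rpt3, Rpt4, Rpt6, Rpn3 and Rpn6. Rpn13 rested on 9 to 19 reads in a library, too few to show a change of the size seen in other members.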
